A study of Mus musculus with 13 samples.

Results

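The tissue inhibitors of metalloproteinases (TIMPs) and the related membrane inhibitor RECK were followed in RNA from the cartilage of the mandibular condyle, the rounded end of the lower jaw that moves in the temporomandibular joint, in mice. Their 5 genes, Timp1 (gene ID 21857), Timp2 (21858), Timp3 (21859), Timp4 (110595) and Reck (53614), were taken by symbol from the deposited table of 18748 genes, and all 5 were found there. All 5 also passed the filter on low counts that left 14067 genes for testing. The study compared young mice of 2 months (7 libraries) with aged mice of 18 months (6 libraries), as labelled. The labels name no strain, sex, genotype or treatment. Nothing in the labels says that each library came from a separate mouse, so the p-values measure the spread between these libraries.

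TIMPs are small secreted proteins that block matrix metalloproteinases (MMPs) by filling their active site, and cartilage holds them in balance with the collagenases and aggrecanases that break down its matrix. TIMP1 and TIMP2 diffuse freely, whereas TIMP3 binds to the matrix itself and also blocks several ADAM and ADAMTS proteases, among them the aggrecanases ADAMTS4 and ADAMTS5. TIMP4 is best known from heart, muscle and fat, and RECK is held on the cell surface by a lipid anchor, where it restrains MMP2, MMP9, MMP14 and ADAM10.

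The libraries held 17531694 to 18203443 expected counts in the young group and 16356839 to 17876681 in the aged group. Chondrocyte markers were present in every library, with a summed level of 25527 to 40567 CPM (counts scaled to library size, with TMM factors) in young and 6766 to 17612 CPM in aged libraries, and 8 of the 10 were lower with age. By the same test as below, skeletal muscle markers were higher for 15 of 18 genes (721 to 7107 CPM young, 5949 to 21291 CPM aged), erythroid markers for 14 of 14 (375 to 1489, 1950 to 14212 CPM) and neutrophil markers for 10 of 12 (608 to 1925, 1227 to 6005 CPM). Adipocyte markers were higher for 5 of 6 tested genes (61.4 to 111 CPM young, 116 to 240.2 CPM aged), with Plin1, Cidec, Lep and Retn under the filter. Osteoclast markers were lower for 6 of 7 genes (4080 to 5113, 1639 to 2911 CPM) and osteoblast markers for 5 of 7 (9227 to 12316, 5291 to 9005 CPM). No marker in these lists was at 0 in all libraries. In bulk tissue, fewer cells of a type and less RNA per cell cannot be told apart.

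Timp3 and Timp4 rose with age, and Timp1, Timp2 and Reck did not pass the test. Timp3 was 2.34-fold and Timp4 4.57-fold higher in aged cartilage, and in both genes every aged library lay above every young one. A gene was called changed where edgeR's quasi-likelihood test gave an adjusted p under 0.05 (Benjamini-Hochberg, over all 14067 genes). Much of the transcriptome differed between the age groups by this measure. Of tested genes, 24.7% were called higher, 21.6% lower and 46.2% in either direction, against 2 of the 5 inhibitor genes called higher and 3 not called. Full separation of the ages was less common over all genes, at 8.28% with all aged libraries above the young and 10.9% with all below.

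**Figure D1:**
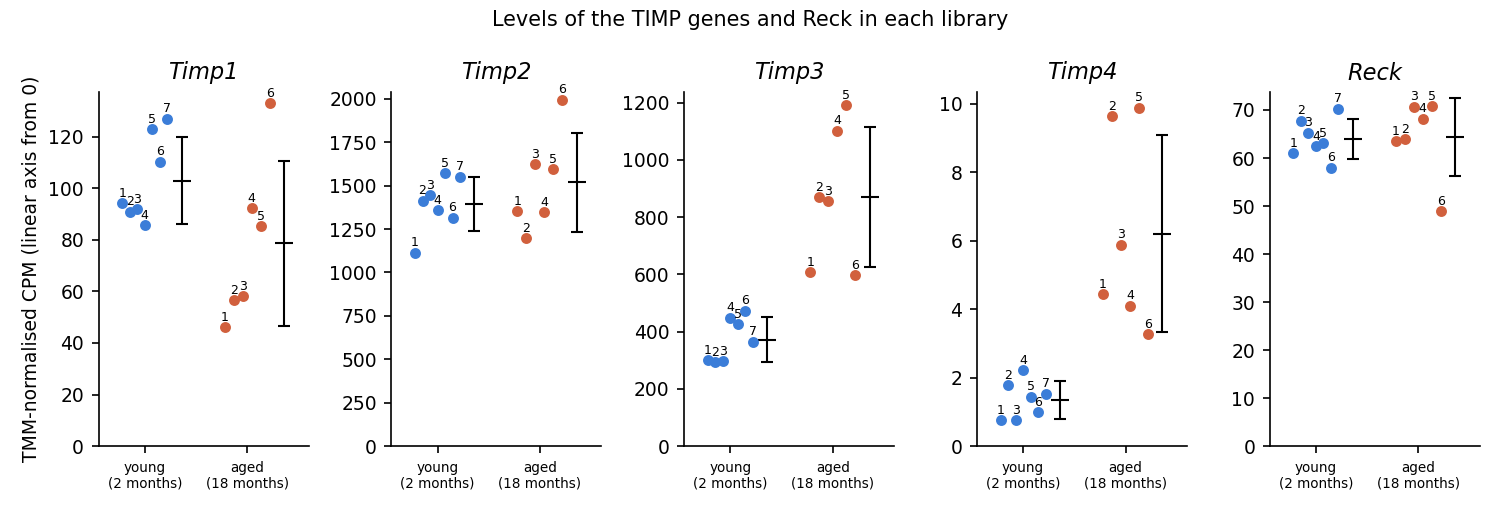
Level of each inhibitor gene in each library, in TMM-normalised CPM on a linear axis from 0, for young (blue) and aged (orange) mice. Numbers beside the points are replicate numbers and the bars are the mean ± SD (n = 7 young, 6 aged). Timp3 and Timp4 separate the ages without overlap, while the other 3 genes overlap. Among the aged points, the one numbered 6 stands at the top for Timp1 and Timp2 and at the bottom for Timp3, Timp4 and Reck.

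Timp3 encodes the matrix-bound inhibitor. Its level ran from 293 to 473 CPM in young libraries, with a median of 365, and from 598 to 1192 CPM in aged libraries, with a median of 862. The lowest aged values, 598 CPM in replicate 6 and 608 CPM in replicate 1, still lay above the highest young value. Mean levels were 372 ± 77.9 CPM (SD, n = 7) and 871 ± 245 CPM (SD, n = 6). The fitted log2 fold change was 1.23 ± 0.18 (SE), with an adjusted p of 1.18e-04 in edgeR's quasi-likelihood test. Of all tested genes, 93.2% had a lower log2 fold change. The spread widened beside the rise, since the young libraries fell into a lower set of 3 (293 CPM in replicate 2, 296 in replicate 3 and 299 in replicate 1) and a set of 4 between 365 and 473 CPM, and the aged libraries covered a wider range than both.

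Timp4, the scarce member of the family here, had the larger relative rise of the pair. Young libraries held 0.754 to 2.22 CPM, with a median of 1.44, and aged libraries 3.27 to 9.88 CPM, with a median of 5.16. These levels rest on 13 to 38 expected counts per young library and 64 to 177 per aged library. Replicates 2 and 5 stood highest in the aged group, at 9.64 and 9.88 CPM, and replicate 6 lowest, with no overlap with the young libraries. The means were 1.35 ± 0.549 CPM (SD, n = 7) and 6.20 ± 2.88 CPM (SD, n = 6). The fitted log2 fold change was 2.19 ± 0.32 (SE), above that of 98.3% of tested genes, with an adjusted p of 1.09e-04 in edgeR's quasi-likelihood test. Leaving out any 1 library kept both calls, with a largest adjusted p of 3.97e-04 for Timp3 and 3.87e-04 for Timp4.

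Both genes lie inside synapsin genes on the opposite strand, Timp3 within Syn3 and Timp4 within Syn2, and exons of each pair overlap in the GENCODE M21 annotation. Synapsins coat synaptic vesicles in neurons. The library kit keeps strand, per the labels, but no source used here says whether the counting used it, so reads of the paired genes may have been mixed. Syn3 stayed under the filter on low counts, with mean TPM (a level corrected for gene length and depth) of 0.0843 in young and 0.133 in aged libraries. Syn2 stood at 0.479 ± 0.121 and 0.877 ± 1.50 TPM (SD, n = 7 and 6), and at a log2 fold change of 0.93 ± 0.73 (SE) it missed the threshold (adjusted p = 0.325, edgeR). Aged replicate 1 alone was high, at 3.93 TPM, and the other 5 aged libraries, at 0.0800 to 0.420 TPM, had a mean of 0.266 TPM, below that of the young group. Timp1 likewise lies within Syn1 on the opposite strand, with no shared exon, and Timp2 overlaps Cep295nl on the same strand, also with no shared exon. Syn1 rose from 3.10 ± 0.544 to 5.07 ± 1.13 TPM (SD, n = 7 and 6), with a log2 fold change of 0.63 ± 0.16 (SE, adjusted p = 0.00461, edgeR), while Cep295nl was not called (0.21 ± 0.19, adjusted p = 0.392).

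The promoters of the 2 genes that rose are shown because they are unlike in sequence although both genes were higher in all aged libraries. The letters come from RefSeq promoters on the build GRCm38.p6, an older build than the GRCm39 named in the submitters' processing notes, and read 5′ to 3′ on the strand of the gene, with each CG dinucleotide in capitals. Timp3 is at chr10:86300162-86300371 on the plus strand, and ends 41 bases before the RefSeq start. It stops there because the GENCODE M21 annotation gives a Timp3 transcript start at the next base. Timp4 is at chr6:115252206-115252455 on the minus strand, and ends at the base before the start.
Timp3: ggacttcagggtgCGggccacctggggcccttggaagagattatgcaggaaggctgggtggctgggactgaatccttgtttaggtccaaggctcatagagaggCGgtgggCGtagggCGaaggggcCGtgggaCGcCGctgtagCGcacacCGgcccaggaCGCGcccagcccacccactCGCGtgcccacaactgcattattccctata
Timp4: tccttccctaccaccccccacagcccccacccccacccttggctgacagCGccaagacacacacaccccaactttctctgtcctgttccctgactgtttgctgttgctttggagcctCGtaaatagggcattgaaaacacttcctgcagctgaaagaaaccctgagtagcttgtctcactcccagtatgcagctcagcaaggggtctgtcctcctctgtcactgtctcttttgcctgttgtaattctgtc
Over the full 250 bases before the start, Timp3 held 18 CG dinucleotides and Timp4 held 2, beside a median of 6 over 32817 RefSeq promoters of the same length, of which 78.3% and 18.8% held fewer. Of those of Timp3, 13 lie in the stretch shown and the rest past it. Timp2 with 21, Reck with 19 and Timp1 with 6 completed the family. The GC box, searched as GGGCGG on both strands, was found before Timp1, Timp2, Timp3 and Reck, was not found in this window before Timp4, and was held by 32.7% of all promoters. That of Timp3 begins at base -15, past the stretch shown. CCAAT was found before Timp1, Timp2 and Reck (33.8% of all promoters). TATAAA (12.4%), the AP-1 letters TGANTCA (6.75%) and CACGTG (6.02%), also searched on both strands, matched none of the 5 windows.

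Timp2, the partner of MMP14 in activating pro-MMP2, was the most abundant of the 5. It ran from 1114 to 1570 CPM in young libraries, with a median of 1414, and from 1199 to 1995 CPM in aged libraries, with a median of 1476. The ranges overlapped, with aged replicates 3, 5 and 6, at 1625, 1597 and 1995 CPM, above all young libraries and the other 3 aged libraries among them. The log2 fold change was 0.12 ± 0.12 (SE), from -0.11 to 0.36 at 2 SE either side, with an adjusted p of 0.415 in edgeR's quasi-likelihood test. With library sizes alone in place of TMM the value was 0.35 (adjusted p = 0.0142, edgeR), a setting under which the median of all genes shifted by 0.230.

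Timp1, which also binds the MMP9 proenzyme, had lower values in most aged libraries but was not called. Young libraries ranged from 85.8 to 127 CPM, with a median of 94.3, and aged libraries from 46.2 to 133 CPM, with a median of 71.8. Aged replicates 1, 2, 3 and 5 (46.2, 56.6, 58.3 and 85.3 CPM) lay below every young library, replicate 4 lay among them at 92.4 CPM, and replicate 6 lay above them all. The log2 fold change was -0.39 ± 0.21 (SE), from -0.82 to 0.03 at 2 SE either side, with an adjusted p of 0.146 in edgeR's quasi-likelihood test. Without aged replicate 6 it was -0.62 and passed the test (adjusted p = 0.0110, edgeR), so 1 library decided this call.

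Reck, the membrane-anchored inhibitor, had nearly the same mean at both ages, with 64.0 ± 4.16 CPM in the young group (SD, n = 7) and 64.4 ± 8.17 CPM in the aged group (SD, n = 6). Its young range was 58.0 to 70.3 CPM, with a median of 63.1, and its aged range 49.0 to 70.8 CPM, with a median of 66.1. A single aged library, replicate 6, lay below the young range, and the other 5 aged libraries stood between 63.5 and 70.8 CPM. The log2 fold change was 0.01 ± 0.08 (SE), from -0.15 to 0.17 at 2 SE either side, with an adjusted p of 0.942 in edgeR's quasi-likelihood test. As for Timp2, library sizes alone gave a called rise, of 0.24 (adjusted p = 0.0140, edgeR), about the size of the shift that this setting gave the median of all genes.

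Per gene length, the order of the family changed in its middle. In young libraries Timp2 was highest at 862 ± 97.7 TPM (SD, n = 7), followed by Timp1 at 379.7 ± 54.4, Timp3 at 174 ± 35.7, Reck at 31.7 ± 2.3 and Timp4 at 1.05 ± 0.437 TPM, with no overlap between neighbours. In aged libraries Timp2 was again first at 987 ± 176 TPM (SD, n = 6), but Timp3 at 429 ± 115 TPM now stood above Timp1 at 287 ± 105 TPM. That pair overlapped across libraries, and Timp3 was the higher of them in 5 of 6, replicate 6 being the exception. Reck at 33.8 ± 5.33 and Timp4 at 5.04 ± 2.21 TPM kept the last places, without overlap. As a share of the summed TPM of the 5 genes, Timp3 went from 12.0 ± 2.21% to 24.8 ± 6.30% and Timp1 from 26.2 ± 2.46% to 16.2 ± 4.28% (SD, n = 7 and 6). Timp2 held 59.5 ± 3.11% and 56.7 ± 6.09%, Reck 2.20 ± 0.229% and 1.98 ± 0.419%, and Timp4 0.0722 ± 0.0297% and 0.300 ± 0.151%.

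Ratios within a library do not depend on how libraries are scaled to each other. The log2 ratio of Timp3 to Reck averaged 2.43 ± 0.36 in the young group (SD, n = 7) and 3.64 ± 0.30 in the aged group (SD, n = 6), a difference of 1.21 with no overlap. Timp4 to Reck differed by 2.18, also with no overlap. Timp1 to Timp3 went on average from 1.14 to -0.61, and Timp2 to Timp3 from 2.33 to 1.23, but in both ratios at least 1 aged library lay inside the young range. So the separation of Timp3 from Reck held in all libraries, while its separation from the other abundant inhibitors did not.

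The MMP, ADAMTS and ADAM families, which hold targets of these inhibitors, had more genes lower than higher with age. Not every listed member is a known target. Of 41 tested MMP, ADAMTS and ADAM genes, 23 fell, 4 rose and 14 were not called in edgeR's quasi-likelihood test, where 21.6% of all tested genes were called lower and 24.7% higher. Their median log2 fold change was -0.50, beside 0.014 for all tested genes. Among 10 tested secreted MMPs, 6 fell and 1, Mmp28, rose (0.29 ± 0.10, SE). No secreted MMP was called higher in the fits that left out 1 of aged replicates 5 and 6 or young replicates 1, 4, 6 and 7, nor in those with a marker score, so the call of Mmp28 rests on single libraries. The gelatinase Mmp9, from 1984 ± 196 to 974 ± 240.3 TPM (SD, n = 7 and 6), had a log2 fold change of -1.11 ± 0.12 (SE), and the collagenase Mmp13 one of -1.38 ± 0.18. Mmp12, the macrophage elastase, had the largest fall of the list, at -1.44 ± 0.32 (SE). It had few reads, with 13 to 32 expected counts per young library and 4 to 20 per aged library, and its CPM overlapped between the ages. Mmp2, the other gelatinase, fell by 0.44 (adjusted p = 0.0171, edgeR). Of 5 tested membrane-type MMPs, 3 fell, among them Mmp14 (866 ± 61.4 to 502 ± 135 TPM, log2 fold change -0.87 ± 0.14, SE) and Mmp16 (-2.08 ± 0.13).

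Of 18 tested ADAMTS genes, 11 fell and 3 rose. The aggrecanases Adamts4 and Adamts5, both inhibited by TIMP3, had log2 fold changes of -1.50 ± 0.19 and -0.52 ± 0.10 (SE, adjusted p = 2.70e-05 and 0.00114, edgeR). Adamts9 had the largest fall of that list (-1.56 ± 0.16, SE), Adamts6 the largest rise (0.97 ± 0.11), and the procollagen N-propeptidase Adamts2, the most abundant, fell by 0.63 on the log2 scale. Of 8 tested ADAM genes, 3 fell, with Adam12 lowest at -1.74 ± 0.11 and the shedding protease Adam17 at -0.28 ± 0.05. Adam10, a target of RECK, and Adam15 were not called, at -0.12 ± 0.09 and -0.08 ± 0.07. Among 10 tested partners of TIMPs and RECK, 3 fell and 7 were not called, a share near the 21.6% of all tested genes called lower. Those that fell were Cd63, a surface partner of TIMP1 (1551 ± 125 to 939.7 ± 92.5 TPM, -0.72 ± 0.10), the integrin subunit Itgb1 (-0.32 ± 0.08), named after its value was seen, and Adgra2, which works with RECK in Wnt7 signalling (-0.66 ± 0.07). Lrp1, the endocytic receptor that clears TIMP3, was not called at 0.18 ± 0.12 (SE, adjusted p = 0.259, edgeR). Of 18 tested protease inhibitors of other families, not all of them secreted, 8 rose, 4 fell and 6 were not called, with a median of 0.44. The 4 that fell are a share near the 21.6% of all tested genes called lower, and 24.7% of all tested genes were called higher.

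**Figure D2:**
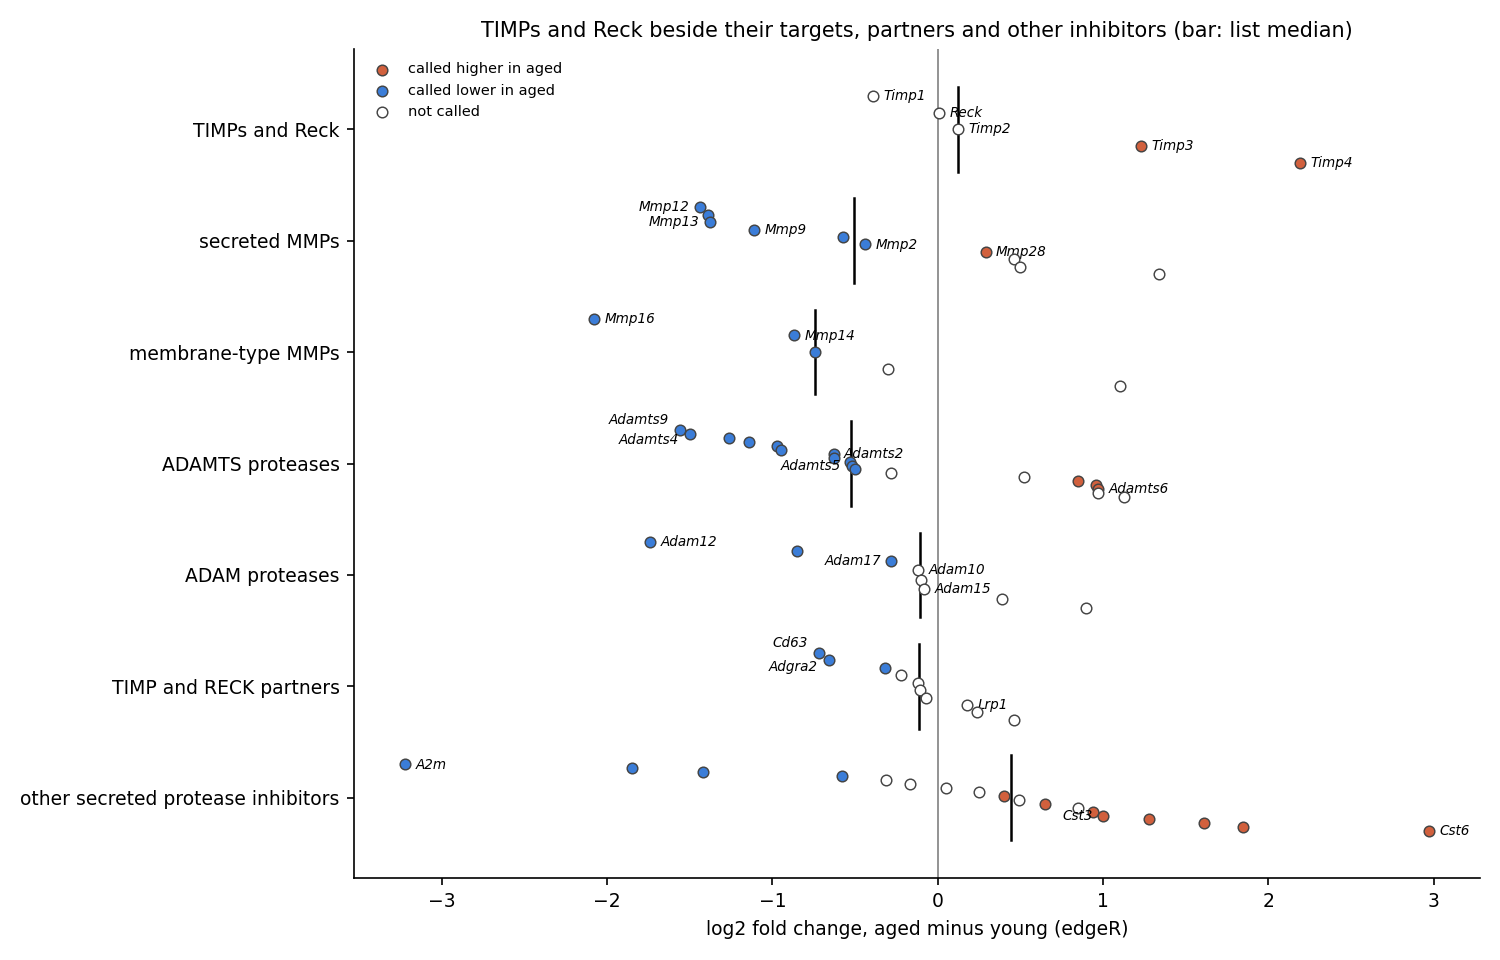
Log2 fold change, aged minus young, of the inhibitor genes and of MMP, ADAMTS and ADAM proteases, partners and other protease inhibitors (edgeR). Not all members of the list labelled other secreted protease inhibitors are secreted. Each point is a tested gene, filled orange if called higher, blue if called lower and white if not called, the black bar is the median of each list, and most genes named in the text are labelled. Timp3 at 1.23 and Timp4 at 2.19 lie to the right of 0, and the medians of the secreted MMP, membrane-type MMP and ADAMTS lists lie between -0.74 and -0.50.

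Set against each other, inhibitor transcripts were more plentiful relative to protease transcripts in aged libraries. The 4 TIMPs together made up 1171 to 1594 TPM in young libraries, with a median of 1410, and 1383 to 1970 TPM in aged libraries, with a median of 1806. The 39 MMP and ADAMTS genes of the table summed to 5914 to 7221 TPM in young and 3121 to 4810 TPM in aged libraries. Most of the mean sums, 6759 and 3898 TPM, came from Mmp9, Mmp13, Mmp2 and Mmp14. Their means were 1984, 1743, 1498 and 866 TPM in young and 974, 699, 1164 and 502 TPM in aged libraries. The ratio of the sums averaged 0.210 ± 0.0227 in the young group (SD, n = 7) and 0.447 ± 0.0867 in the aged group (SD, n = 6). It ranged from 0.177 to 0.245 and from 0.366 to 0.593, so all aged libraries lay above all young ones, and the log2 difference was 1.08. Leaving Timp2 and Mmp9, the highest gene of each sum, out of it gave 1.09. They were left out together, so this value does not show the part of either gene alone. Both sides moved, with overlap between the ages in the TIMP sum and none in the protease sum. Osteoclast markers, whose cells make much of the MMP9 of bone, were lower alongside (4080 to 5113 CPM young, 1639 to 2911 CPM aged), and their part in the ratio was not tested.

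**Figure D3:**
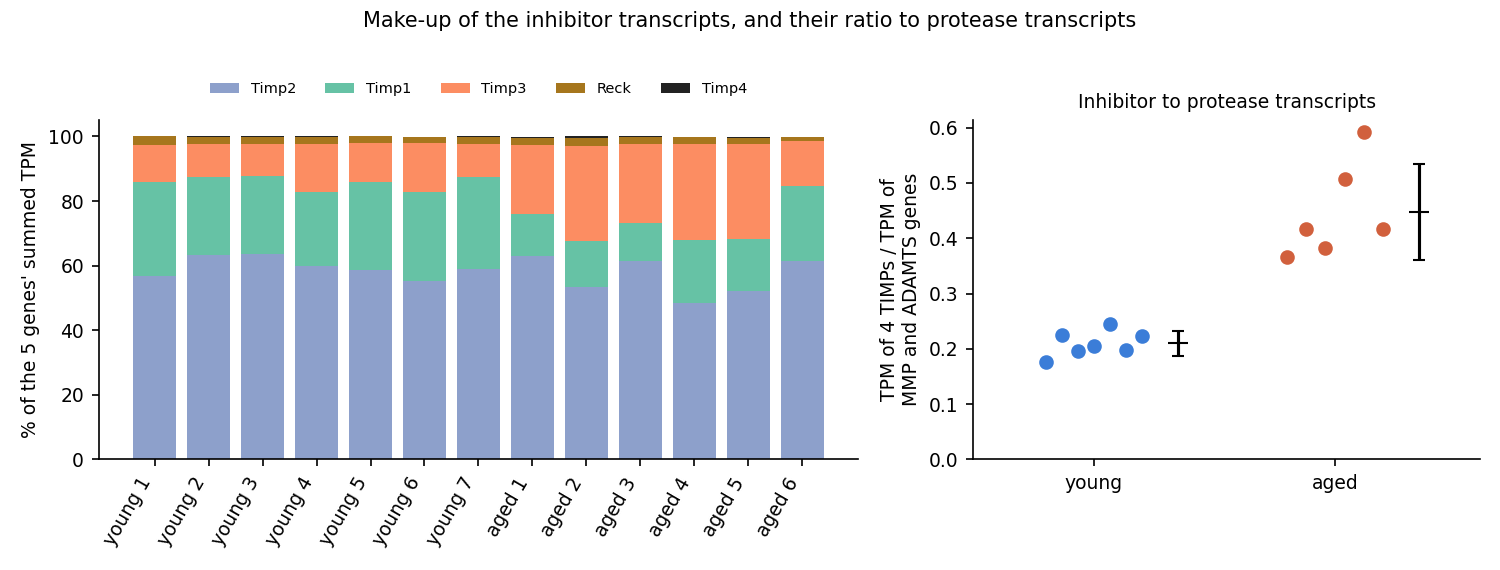
Left, share of each inhibitor gene in the summed TPM of the 5 genes, as stacked bars in percent for each library. Right, summed TPM of the 4 TIMPs divided by that of the MMP and ADAMTS genes in each library, with mean ± SD (n = 7 young, 6 aged). The Timp3 band widens from 12.0% to 24.8% on average, and the ratio is 0.177 to 0.245 in young and 0.366 to 0.593 in aged libraries.

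Inhibitors and their named targets were also compared pair by pair within libraries, as log2 ratios of TPM. Timp3 to Adamts4 went on average from 2.91 to 5.67, Timp3 to Adamts5 from 3.28 to 5.05 and Timp3 to Adam17 from 2.19 to 3.69, each without overlap between the ages. Timp2 to Mmp14 was near 0 in young libraries (-0.01 ± 0.10, SD, n = 7) and 1.00 ± 0.20 (SD, n = 6) in aged ones, again with no overlap. Timp2 to Mmp2 moved less, from -0.80 to -0.22, without overlap. Reck to Mmp9 went from -5.96 to -4.83 without overlap, whereas Reck to Mmp14, Reck to Adam10 and Timp1 to Mmp9 overlapped, with differences of 0.90, 0.14 and 0.59. In the ratios of Timp2 to Mmp14, Timp2 to Mmp2 and Reck to Mmp9, the protease was called lower and the inhibitor was not called.

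Muscle and blood cell markers moved with the groups, and their values are given here beside Timp3 and Timp4. The muscle score, the mean log2 CPM of 18 markers, was 4.49 to 7.10 in young and 6.79 to 8.86 in aged libraries. The erythroid and neutrophil score, over 26 markers, was 3.76 to 5.25 and 5.50 to 7.93, with no overlap. With the muscle score as a covariate in edgeR's fit, the age difference of Timp4 was 1.01 (adjusted p = 0.0432) and that of Timp3 was 0.82 (adjusted p = 0.0512, no longer called). With the erythroid and neutrophil score they were 3.00 (adjusted p = 0.00729) and 1.32 (adjusted p = 0.0301). With both scores they were 1.01 (adjusted p = 0.571) and 0.66 (adjusted p = 0.632). The scores correlated with age at r = 0.78 and 0.88 over the 13 libraries, and with both in the fit only 12 genes of the whole table were called higher and 16 lower. Mast cell markers were also higher, for 7 of 7 genes (14.3 to 31.5 CPM young, 27.7 to 69.6 CPM aged), as were the adipocyte markers above. Of 8 tendon and fibrous layer markers, 3 were higher and 2 lower (5392 to 7102 CPM young, 6960 to 11734 CPM aged). Macrophage markers had 3 of 8 higher and 2 lower, endothelial markers 1 of 8 higher and 3 lower, and Schwann cell markers 3 of 7 higher and 0 lower. The part of these cell types in the levels of Timp3 and Timp4 was not tested.

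The libraries in the range of muscle scores that both ages share, chosen after their values were seen, are given side by side as a description. Young replicates 2 and 4 had muscle scores of 7.10 and 7.05, and aged replicates 1 and 6 had 6.79 and 6.98. Timp4 was 1.77 and 2.22 CPM in that young pair and 4.43 and 3.27 CPM in the aged pair. Timp3 was 293 and 449 CPM in the young pair and 608 and 598 CPM in the aged pair. Both genes stood higher in the aged pair. No other result was possible, since every aged library lay above every young one in both genes. These 4 libraries give no test of the part of muscle RNA in the age difference. Their erythroid and neutrophil scores were not alike, at 4.08 and 4.62 in the young pair and 7.74 and 7.93 in the aged pair.

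**Figure D4:**
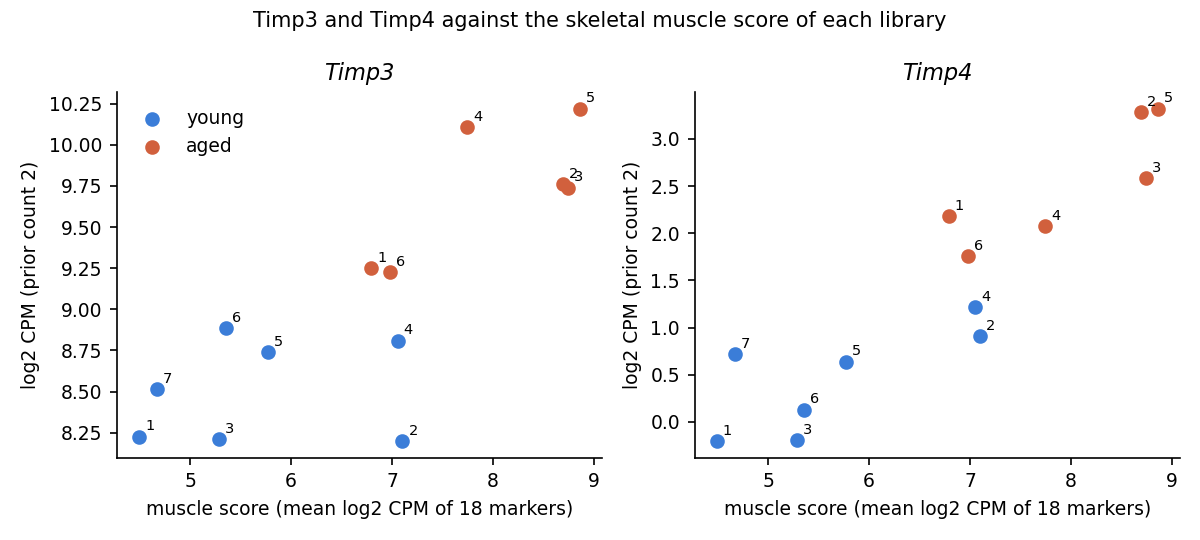
Log2 CPM (prior count 2) of Timp3 and Timp4 against the muscle score, the mean log2 CPM of 18 skeletal muscle markers, with 1 point per library and its replicate number. Between scores of 6.79 and 7.10, where both ages have libraries, the aged points lie above the young ones in both panels. Every aged point lies above every young point at all scores, so this range could give no other result.

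Within each age, 20 relations between the 5 genes and the 2 scores were computed. Timp4 and the muscle score gave r = 0.74 in the 7 young libraries (exact permutation p = 0.0611, adjusted p = 0.377, rho = 0.75 with p = 0.0663) and r = 0.85 in the 6 aged libraries (exact permutation p = 0.0486, adjusted p = 0.377, rho = 0.77 with p = 0.103). Without the 2 libraries farthest from the median score these were 0.25 and 0.84, so the young relation rests on those libraries, replicates 2 and 4. Timp3 and the muscle score gave r = 0.75 in aged libraries (exact permutation p = 0.0806, adjusted p = 0.377, rho = 0.71 with p = 0.136), and -0.29 without the 2 farthest, which were replicates 1 and 6. Reck and the muscle score gave r = 0.66 in aged libraries (exact permutation p = 0.0917, adjusted p = 0.377, rho = 0.89 with p = 0.0333), and 0.14 without the 2 farthest. The smallest two-sided adjusted p of the family was 0.377, so none of the relations passed.

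**Figure D5:**
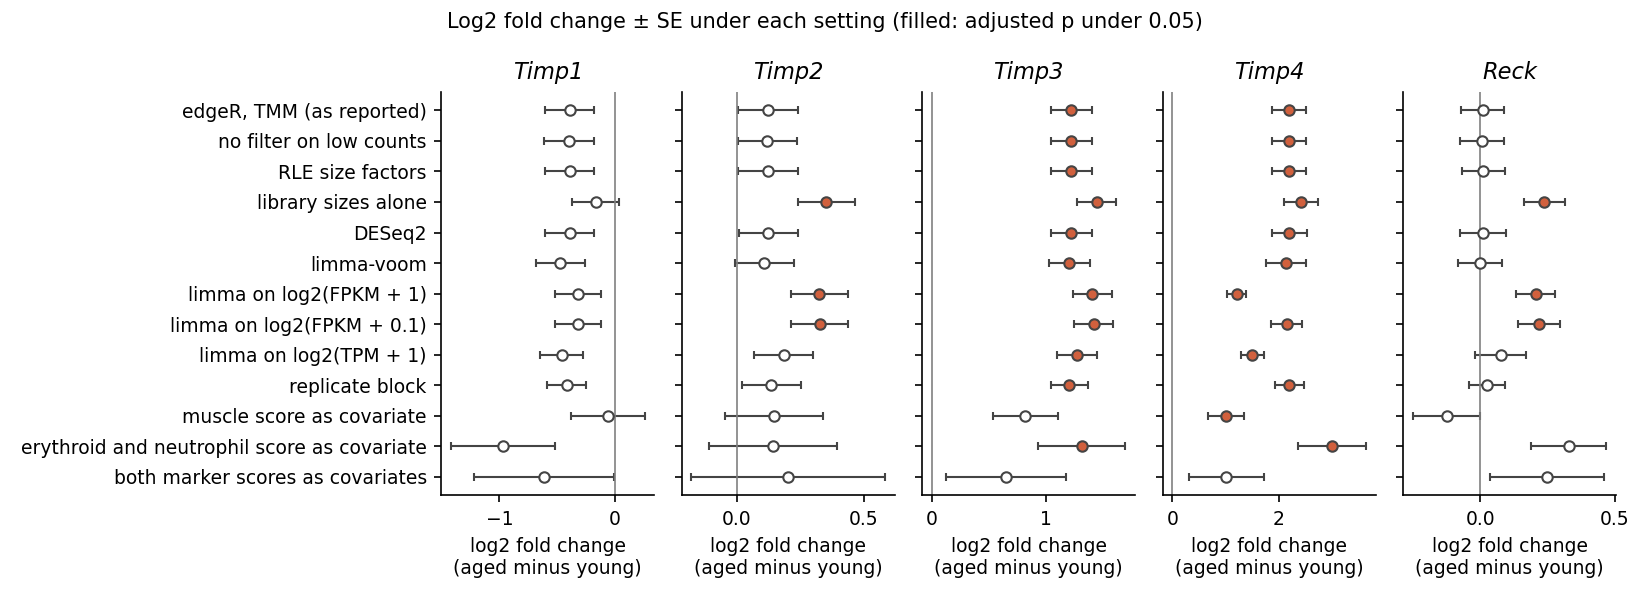
Log2 fold change ± SE, aged minus young, of each inhibitor gene under the reported edgeR fit and 12 other settings, filled where the adjusted p is under 0.05. Each panel has its own x axis. Timp3 and Timp4 lie right of 0 under all settings shown, with open points for both under the joint marker scores and for Timp3 under the muscle score, and Timp2 and Reck fill where libraries are scaled by size alone or by FPKM.

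The plot of fold changes by setting shows how far each call depends on the fit. Timp3 and Timp4 kept their direction and call under other count tools, filters and scalings, and lost the call only in fits with marker scores, Timp3 with the muscle score and both genes with the joint scores. Timp1 was below 0 in all 12 settings, between -0.97 and -0.06, without a call in any.

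For each inhibitor the genes most like it were found by the correlation of deviations from the age mean over the 13 libraries, among 11030 genes with a mean TPM of at least 5. The points share their libraries and depth, and the values are descriptions. Timp3 was followed closest by F3, the gene of tissue factor, the starter of blood clotting (r = 0.93), which itself rose with a log2 fold change of 1.82 (adjusted p = 1.65e-05, edgeR). The circadian repressor gene Nr1d2 came next (r = 0.89), and it rose by 0.84, followed by Gnl1 (r = 0.87), which was not called. Timp4 was followed by Mreg (r = 0.91), Tex2 (r = 0.91) and Car14, a membrane carbonic anhydrase (r = 0.88), of which Tex2 and Car14 rose by 0.60 and 1.74. Timp1 was closest to the actin-severing factor gene Dstn (r = 0.94), Ndfip2 (r = 0.94) and the lysosomal membrane gene Lamp2 (r = 0.93). Timp2 was closest to the collagen-binding receptor gene Antxr1 (r = 0.95), Ptgfrn (r = 0.94) and Cd276 (r = 0.94). Reck was closest to the imprinted gene Peg3 (r = 0.95), which fell by 1.88 between the ages while Reck was not called, and to Plxnb1 (r = 0.94) and Slc8a3 (r = 0.93). Aged replicate 6, which stood apart in Reck at 49.0 CPM, is among the 13 points, and r without it was not computed. Among themselves, Timp1 and Timp2 had r = 0.63, Timp3 and Timp4 r = 0.50, Timp4 and Reck also r = 0.50, and Timp3 and Reck r = 0.38. Timp1 and Reck had r = -0.42, with 0.15 in young and -0.55 in aged libraries alone. The sign also differed between the ages for Timp3 and Reck, at -0.49 in young and 0.74 in aged libraries. Over the 13 libraries the other pairs lay between -0.26 and 0.16. Among these, Timp2 and Reck had 0.59 in young and -0.55 in aged libraries, and Timp2 and Timp4 had 0.47 and -0.43. Timp1 with Timp2, Timp3 with Timp4, and Timp4 with Reck were above 0 at both ages.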

How the data were processed

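Per the labels' protocols, RNA of mandibular condylar cartilage was captured on oligo(dT) beads and sequenced (DNBSEQ, strand-specific pairs). The submitters' processing notes list RSEM 1.3.1, HISAT2 2.1.0, DESeq2 1.4.5, Bowtie2 2.3.4.3 and the build GRCm39, with no roles; the gene models behind the counts are not given in the sources used here. The authors deposited, per the file headers, read counts for each gene and library, which are expected counts since some are not whole. The authors also deposited FPKM and TPM, scaled by gene length and depth, for the same libraries.

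Titles gave each library its age group. After rounding, the expected counts of the whole table were tested with edgeR 4.0.16 (R 4.3.3): filterByExpr (minimum count 10, minimum total count 15), TMM, robust quasi-likelihood fit, all 13 libraries, Benjamini-Hochberg adjustment over all tested genes, threshold 0.05. The procedure was tried on simulated counts of 14002 genes. It recovered 68% of 50 genes changed 1.5-fold and 88% of 50 changed 2-fold, and 2.76% of its calls were false. Far fewer genes were changed there than the 46.2% called in the data. CPM are TMM-normalised, and log2 CPM used a prior count of 2. Alternatives used DESeq2 1.42.0, limma 3.58.1, other scalings, FPKM or TPM, covariates from marker scores, and leaving out each library. No 2 libraries of an age were alike within sampling noise (smallest chi-square per degree of freedom 10.2 over 36 pairs). The members and lists were chosen with earlier results of these data known. The text names all 5 members, from each list the called genes with the largest rise and fall and the gene with the highest TPM, 10 proteases and partners of known relation to a member, the genes overlapping a TIMP, and the 3 genes most like each member. The 5 members and 18609 table IDs matched the RefSeq table. Figures were drawn in Python 3.11.15 with matplotlib 3.10.9.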

Additional observations from a re-analysis of the deposited data

Results flagged for a closer look

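The level of Reck in aged replicate 6 stood apart from the rest of its group. It was 49.0 CPM, and the other 5 aged libraries ranged from 63.5 to 70.8 CPM, with a mean of 67.4 ± 3.51 CPM (SD, n = 5). Its gap to the nearest library was 0.667 of the whole range of the group, above the limit for 6 samples, and 12 groups of values were tested in this way, of which chance flags about 1 in 20. With it the aged mean was 64.4 CPM. The same library had the highest aged Timp1 (133 CPM) and Timp2 (1995 CPM) and the lowest aged Timp3 (598 CPM) and Timp4 (3.27 CPM), none of which passed that limit.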

How the results depend on the processing

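The calls of Timp3 and Timp4 held when any 1 library was left out (log2 fold change 1.12 to 1.31 and 2.01 to 2.36), and the ratio of TIMP to protease transcripts held its direction (0.99 to 1.13). Timp1 ranged from -0.62 to -0.28 and was called only without aged replicate 6. Timp2 ranged from 0.02 to 0.18, and Reck from -0.0269 to 0.0711 with both signs. Reck was also below 0 with limma-voom (-0.0001) and with the muscle score (-0.13), uncalled in both. Library sizes alone, log2(FPKM + 0.1) and log2(FPKM + 1) called Timp2 (0.35, 0.33 and 0.33) and Reck (0.24, 0.22 and 0.21), and moved the median of all genes by 0.230, 0.191 and 0.157. Timp3 lost its call beside the muscle score (0.82, adjusted p = 0.0512) or both marker scores (0.66, adjusted p = 0.632), as did Timp4 with both scores (1.01, adjusted p = 0.571). The cause was not tested.

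Of all tested genes, 3471 were called higher and 3033 lower. Both marker scores left 12 and 16, the erythroid and neutrophil score 1524 and 1283, the muscle score 1866 and 1611. Library sizes alone gave 7034 and 1253, log2(FPKM + 0.1) 6234 and 1366, and log2(FPKM + 1) 6250 and 1361. Calls in the protease lists fell to 0 with both scores, and with the erythroid and neutrophil score 4 ADAMTS and 1 membrane-type MMP gene fell. Partners called higher numbered 4 with library sizes alone or FPKM. Whether replicate numbers pair the libraries was not settled. The correlation of deviations between libraries of the same number ran from -0.120 to 0.258 over 6 numbers. By this measure 2 of 6 young libraries were most like the aged library of their own number. With the numbers as a replicate block, which leaves out young replicate 7, Timp3 was 1.21 (adjusted p = 6.37e-04), Timp4 2.20 (4.36e-04), Timp1 -0.42 (0.0805), Timp2 0.14 and Reck 0.02, with no change of call. Timp4 has few counts in young libraries, which limits its precision.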

Other observations

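Of the listed protease inhibitors other than the TIMPs and RECK, the genes with the largest change in each direction and the highest level are described here. Cst6, a cystatin that blocks cysteine proteases, had the largest rise of the list, with a log2 fold change of 2.97 ± 0.27 (SE, adjusted p = 1.96e-06, edgeR). Its level was near the floor, with means of 0.103 TPM in young and 0.863 TPM in aged libraries. The fold rests on 2 to 5 expected counts per young library and 17 to 35 per aged library. Cst3, the gene of cystatin C and the most abundant of them, rose from 3137 ± 352 to 6172 ± 1808 TPM (SD, n = 7 and 6), with a log2 fold change of 1.00 ± 0.18 (SE, adjusted p = 5.39e-04, edgeR). A2m, whose product alpha-2-macroglobulin traps proteases of several classes, had the largest fall, at -3.22 ± 0.35 (SE, adjusted p = 1.02e-05, edgeR). In 4 of the 18 tested genes all aged libraries lay above the young ones and in 3 all lay below, beside 8.28% and 10.9% of all tested genes.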
